A study of Mus musculus with 9 samples.

Results

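The 7 genes described here, Nmbr, Tnfrsf21, Gpm6a, Ccdc85a, Ptprq, Slitrk3 and Entpd4, were chosen by their measured signal, which is low in mouse embryonic fibroblasts homozygous for the Rb ∆G allele (∆G) against wild-type fibroblasts (WT). They are 7 of 19938 genes measured. The question asked of each was whether Rb -/- fibroblasts (null) sit at the ∆G level or at the WT level. The arrays were 3 of Rb +/+ cultures, 3 of Rb ∆G/∆G cultures and 3 of Rb -/- cultures. All 9 cultures were embryonic fibroblasts deprived of serum: 24 h after plating in 15 cm dishes the medium was changed to 0.1% serum, which stops normal fibroblasts from cycling. The sources used here give neither embryonic age, nor strain, nor the extent of the null deletion. The series text speaks of littermate pairs, but no label says which arrays share a litter or whether each array is a separate embryo. The p-values therefore reflect array-to-array spread that may be technical.

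The retinoblastoma protein, encoded by Rb1, is a nuclear repressor that binds E2F transcription factors and holds back genes of DNA synthesis in resting cells. It also binds other proteins through surfaces separate from its E2F contacts. The ∆G allele, per the series title, is mutated at the common E2F contact, whereas null cells are labelled Rb -/-, so a gene can be read in both mutants side by side. None of the 7 genes is a textbook replication gene. Nmbr, Tnfrsf21 and Ptprq encode receptors, Gpm6a and Slitrk3 encode membrane proteins best known from neurons, Entpd4 encodes a nucleotide-cleaving enzyme of internal membranes, and Ccdc85a encodes a coiled-coil protein.

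The stretches around the start sites of these genes were compared with E2F sequences, since the ∆G mutation lies in the E2F contact. RefSeq promoter windows (GRCm38.p6, 250 bases before to 50 bases after a start) were found for 5 of the 7 genes, with 6 windows in all because Gpm6a has 2. There was none for Ptprq and Entpd4. The words TTTCCCGC, TTTCGCGC, TTTGCCGC and TTTGGCGC (E2F), TTTGAA (the CHR element of late cell cycle genes) and TGANTCA (AP-1) were searched on both strands, and no word contains another of a different kind. Neither an E2F nor an AP-1 word lay in any of the 6 windows; 2.26% and 7.81% of all 32851 windows held one. The CHR word lay once in each Gpm6a window, and 17.89% of all windows held it. Below are the window of Nmbr, the gene with the largest fall in ∆G, that of Tnfrsf21, the gene with the lowest p in the test of null given further on, and both windows of Gpm6a, the gene with matches. Each is printed 5′ to 3′ up to 30 bases after the start (280 bases), in lower case, with a CHR word in capitals. All 4 lie on the plus strand, at chr10:14759697-14759976, chr17:43016305-43016584, chr8:54779184-54779463 and chr8:54954478-54954757.
Nmbr: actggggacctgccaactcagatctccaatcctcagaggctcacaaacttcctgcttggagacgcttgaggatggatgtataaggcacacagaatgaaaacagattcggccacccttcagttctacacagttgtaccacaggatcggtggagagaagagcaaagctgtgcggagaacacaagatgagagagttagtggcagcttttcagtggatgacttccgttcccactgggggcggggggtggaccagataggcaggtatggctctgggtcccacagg
Tnfrsf21: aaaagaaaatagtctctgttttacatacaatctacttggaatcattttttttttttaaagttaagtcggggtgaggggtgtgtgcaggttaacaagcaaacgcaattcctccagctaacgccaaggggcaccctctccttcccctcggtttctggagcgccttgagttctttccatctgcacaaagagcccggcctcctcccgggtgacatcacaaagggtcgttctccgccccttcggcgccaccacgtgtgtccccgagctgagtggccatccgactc
Gpm6a, first window: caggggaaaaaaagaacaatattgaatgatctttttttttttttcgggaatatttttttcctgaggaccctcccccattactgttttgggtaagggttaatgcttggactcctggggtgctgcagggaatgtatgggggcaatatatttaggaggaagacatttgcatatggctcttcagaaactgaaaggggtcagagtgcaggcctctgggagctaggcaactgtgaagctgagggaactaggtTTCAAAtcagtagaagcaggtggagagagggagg
Gpm6a, second window: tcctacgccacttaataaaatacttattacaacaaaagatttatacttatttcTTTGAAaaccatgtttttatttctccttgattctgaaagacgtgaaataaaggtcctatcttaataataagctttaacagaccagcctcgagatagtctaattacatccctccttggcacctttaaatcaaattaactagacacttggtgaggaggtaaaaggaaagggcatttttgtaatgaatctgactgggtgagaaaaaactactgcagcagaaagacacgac
The windows differed in base composition. The Tnfrsf21 window held 17 CG pairs and the Ccdc85a window 14, against a median of 7.0 over all windows, while those of Nmbr and Slitrk3 held 7 and 9. The Gpm6a windows held 4 and 6, with G and C making up 47.0% and 36.0% of their bases against a median of 52.7%. A word match is a description of the letters, and a missing match says only that these letters are not in this window.

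Signals are log2 RMA values, on which a difference of 1 is a doubling. Array medians lay between 6.33 and 6.40, and 3 arrays a group limit the precision. On this scale Rb1 itself was 9.08 ± 0.13 (SD, n = 3) in WT, 9.61 ± 0.13 in ∆G and 8.31 ± 0.23 in null. Which part of Rb1 the null allele lacks is not known from the labels, so this signal does not check them. Xist, the RNA that silences an X chromosome in female cells, separated the arrays differently from genotype. It was 11.4 to 12.0 on WT replicate 3 and the 3 null arrays and 4.24 to 4.45 on WT replicates 1 and 2 and the 3 ∆G arrays. The Y-linked gene Eif2s3y showed the opposite pattern, so ∆G and null differ in sex pattern as well as in genotype and the effects of both cannot be told apart between them. Comparisons of null with WT, or with WT and ∆G together, are confounded with sex pattern in large part. Outside null, only WT replicate 3 had the null pattern. Fibroblast markers were high throughout, with a mean over 11 genes of 11.6 to 12.0 on WT arrays, 11.5 to 11.7 on ∆G arrays and 11.04 to 11.19 on null arrays. In these bulk samples, fewer cells of a type and less RNA per cell cannot be told apart.

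The neuromedin B receptor gene Nmbr, which encodes a G protein-coupled receptor of the bombesin family, fell furthest in ∆G. Its signal was 7.18, 7.11 and 6.46 on WT replicates 1, 2 and 3, 5.20, 5.16 and 6.09 on the ∆G arrays, and 5.51, 5.46 and 5.55 on the null arrays. Both mutant groups lay wholly below WT, and the null arrays lay between ∆G replicates 1 and 2, which were lower, and ∆G replicate 3, which was higher. ∆G replicate 3 was the ∆G array nearest to WT. The mean difference from WT was −1.43 in ∆G (2.70-fold lower) and −1.41 in null (2.66-fold lower, SE 0.23).

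Tnfrsf21 encodes death receptor 6, a member of the tumour necrosis factor receptor family with an intracellular death domain. Its signal was 9.36, 9.35 and 9.09 on the WT arrays, 8.15, 8.07 and 8.54 on the ∆G arrays and 7.91, 7.81 and 7.88 on the null arrays, each in order of replicate. The 3 groups did not overlap, with null lowest. The difference from WT was −1.01 in ∆G and −1.40 in null (2.02-fold and 2.64-fold lower, SE 0.12).

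Ptprq encodes a receptor-type phosphatase of the R3 class, best known from the hair cells of the inner ear. Its signal was 8.54, 8.93 and 9.04 in WT, 7.80, 7.84 and 7.98 in ∆G and 7.62, 7.96 and 7.51 in null. Both mutant groups lay below WT and overlapped each other, null replicate 2 falling within the ∆G range. The difference from WT was −0.96 in ∆G and −1.14 in null (1.95-fold and 2.20-fold lower, SE 0.14). WT replicate 3 was the highest WT array here, whereas it was the lowest for Nmbr, Tnfrsf21, Gpm6a and Slitrk3.

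Gpm6a encodes a neuronal membrane glycoprotein of the proteolipid protein family, linked to the outgrowth of neurites. Its signal was 6.71, 6.80 and 6.02 in WT, 5.60, 5.58 and 5.43 in ∆G and 5.22, 4.79 and 5.16 in null. The groups did not overlap, and null was again lowest. The difference from WT was −0.98 in ∆G and −1.46 in null (1.97-fold and 2.75-fold lower, SE 0.18). WT replicate 3 differed from the mean of the other WT arrays by −0.74, the widest such gap among the 7 genes.

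Slitrk3 encodes a synaptic adhesion protein with leucine-rich repeats. Its signal was 6.71, 6.84 and 6.63 in WT, 5.60, 5.53 and 6.32 in ∆G and 5.52, 5.38 and 5.35 in null. The groups did not overlap, but ∆G replicate 2 (5.532) lay barely above null replicate 1 (5.523). ∆G replicate 3 lay much nearer to WT than to the rest of its group. The difference from WT was −0.91 in ∆G and −1.31 in null (1.88-fold and 2.48-fold lower, SE 0.17).

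Entpd4 encodes an enzyme of the Golgi and lysosomal membranes that removes phosphate from nucleoside diphosphates and triphosphates. Its signal was 9.81, 10.24 and 9.95 in WT, 9.10, 9.22 and 9.16 in ∆G and 9.04, 9.03 and 9.23 in null. Both mutant groups formed narrow, overlapping ranges below WT. The difference from WT was −0.84 in ∆G and −0.90 in null (1.78-fold and 1.86-fold lower, SE 0.11). RefSeq lists a gene named Entpd4b on the same chromosome that has no value of its own here, and whether the Entpd4 probe set also reports it was not tested.

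Ccdc85a encodes a coiled-coil domain protein. Its signal was 6.64, 6.86 and 6.75 in WT, 5.44, 5.76 and 6.12 in ∆G and 5.91, 5.97 and 5.92 in null. The null arrays lay close together inside the wider ∆G range. The difference from WT was −0.97 in ∆G and −0.82 in null (1.96-fold and 1.76-fold lower, SE 0.14), and with Nmbr this is the gene whose null mean was not below its ∆G mean.

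**Figure D1:**
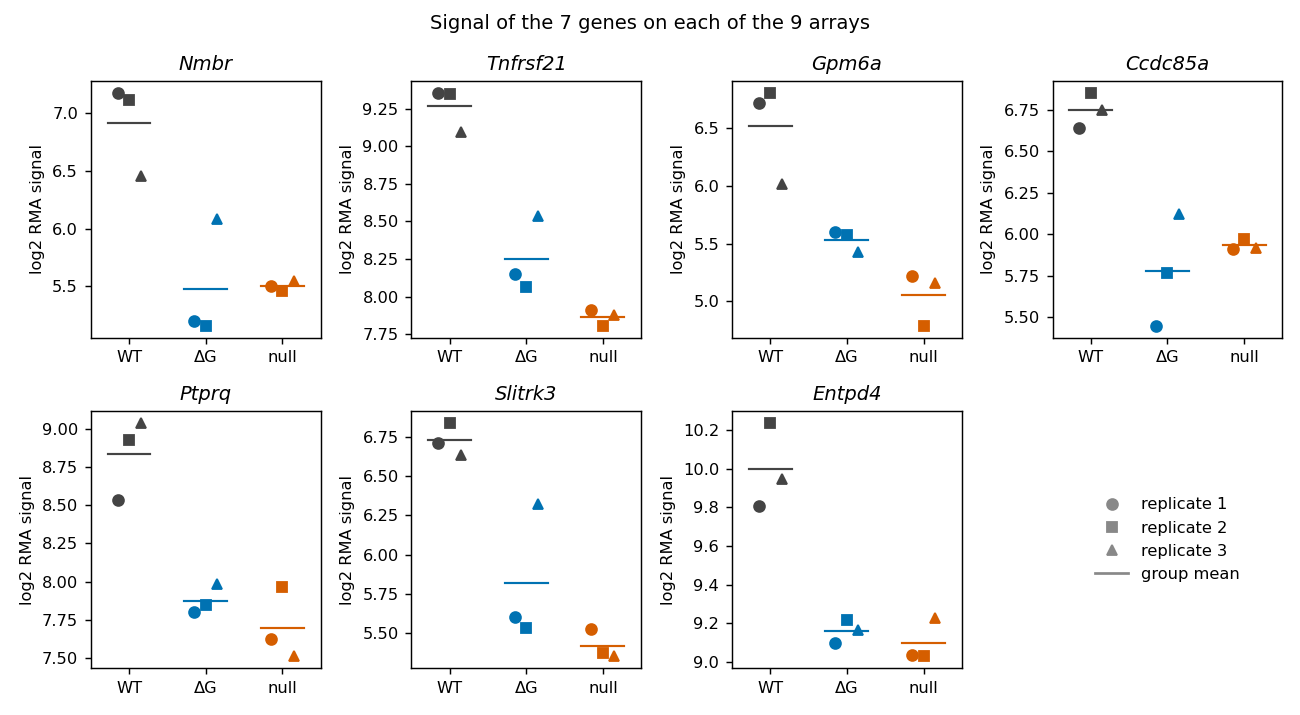
Signal of each of the 7 genes (vertical axis, log2 RMA signal, scaled separately per panel) on the 9 arrays by genotype; symbols mark the replicate number and lines the group means. All ∆G and null arrays lie below all WT arrays in every panel, and ∆G replicate 3 is the highest ∆G array for 5 of the 7 genes.

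The falls in ∆G chose these genes and are a description only. In the limma fit over all genes, 0.211% of genes were called lower and 0.602% higher in ∆G minus WT at an adjusted p of 0.05, and the 7 are among the former by construction. All ∆G arrays lay below all WT arrays for 9.48% of genes. Called genes without overlap between WT and ∆G were ranked by fall, leaving out predicted genes, clone names, small RNAs and odour or pheromone receptors. The 7 held ranks 1 and 3 to 8. Entpd4, the last inside, differed from WT by −0.84. Tmem260, the next outside at rank 9, differed by −0.79, and Igfbp2, which binds insulin-like growth factors, at rank 2 with −1.33, is not among the 7. ∆G replicate 3 was the highest ∆G array for Nmbr, Tnfrsf21, Ccdc85a, Ptprq and Slitrk3, the middle one for Entpd4 and the lowest for Gpm6a. Against WT replicate 3 as the only WT array, a choice made after seeing the data, only Ptprq and Entpd4 were still called in ∆G. Differences from that array were −0.98 for Nmbr and −0.48 for Gpm6a, and the lone array was taken to vary like the other groups.

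The test least tied to the choice of genes set the null mean against the midpoint of the WT and ∆G means. With equal group sizes and equal spread in WT and ∆G, this contrast is orthogonal to ∆G minus WT. Choosing genes by that difference then does not by itself move it, apart from the shared estimate of spread. The spreads were not equal for each gene. The SDs in WT and ∆G were 0.43 and 0.094 for Gpm6a, 0.10 and 0.44 for Slitrk3, and 0.11 and 0.34 for Ccdc85a. For such genes the contrast is not wholly free of the choice, and the size of that effect was not tested. Fits with a WT or ∆G array left out, 1 WT array, array weights or the Y-linked covariate lose this orthogonality. Calls won or lost there are not free of the choice of genes. A value below 0 puts null on the ∆G side. All 7 genes had null below the midpoint, and 6 passed, where 9.52% of all genes were called lower in this contrast. The genes outside the 7 at ranks 2 to 14 by fall in ∆G were also called below it, at −1.25 to −0.40. This position of null is therefore not particular to the 7. Among the 7, the largest distance was that of Gpm6a, −0.97 (SE 0.16, 95% interval −1.31 to −0.62, limma adjusted p = 0.0017). Tnfrsf21 lay at −0.89 (SE 0.10, interval −1.12 to −0.67, adjusted p = 0.00018) and Slitrk3 at −0.86 (SE 0.15, adjusted p = 0.0022). Nmbr lay at −0.69 (SE 0.20, adjusted p = 0.035), Ptprq at −0.66 (SE 0.12, adjusted p = 0.0034) and Entpd4 at −0.48 (SE 0.092, adjusted p = 0.0042). Ccdc85a did not pass, at −0.33 (SE 0.12, interval −0.59 to −0.070, adjusted p = 0.080), and did so only without ∆G replicate 1 (−0.41, adjusted p = 0.012).

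Nmbr was the least secure of the 6 calls. It was lost without WT replicate 1 or 2 (adjusted p = 0.066 and 0.071) and without null replicate 1, 2 or 3 (0.11, 0.11 and 0.090), and with robust eBayes (0.081). More calls were lost with the sex pattern in the fit. With a Y-linked covariate (the mean signal of the measured Y-linked genes), whose effect within groups rests on WT replicate 3, 1 gene was called, Ptprq at −0.92 (adjusted p = 0.046). The others stayed below 0, at −0.17 for Nmbr, −0.29 for Gpm6a, −0.37 for Ccdc85a, −0.39 for Entpd4, −0.70 for Tnfrsf21 and −0.80 for Slitrk3 (adjusted p = 0.069 to 0.85). With WT replicate 3, the WT array that shares the Xist pattern of null, as the only WT array, 5 genes were called. Nmbr was the call lost there, at −0.47 (adjusted p = 0.19).

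**Figure D2:**
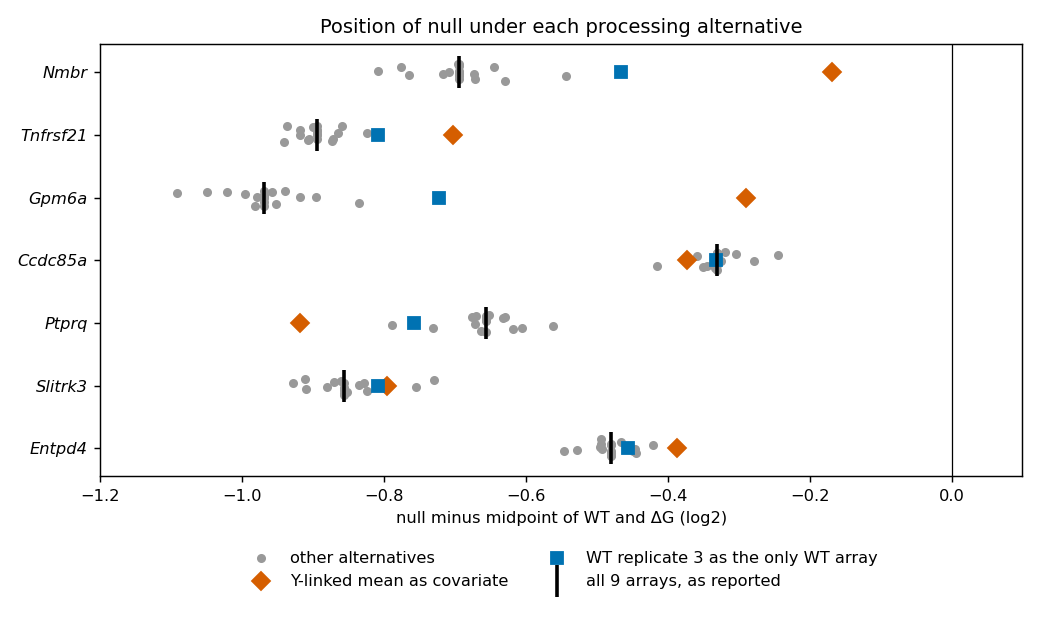
Null minus the midpoint of WT and ∆G (horizontal axis, log2) for each gene under the fit to all 9 arrays (bar) and under 20 alternatives (points). Every point lies below 0; with the Y-linked mean as covariate Nmbr and Gpm6a move nearest to 0, at −0.17 and −0.29.

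In null minus WT all 7 genes were called lower (−1.46 to −0.82, limma adjusted p = 2.7e-05 to 0.0019), where 10.1% of all genes were. All null arrays lay below all WT arrays for each of the 7 and for 18.9% of all genes. This contrast shares its WT arrays, chosen in part for being high, with ∆G minus WT, so that count is no independent evidence. Against WT replicate 3 alone, 6 of the 7 were called, at −0.82 (Ccdc85a) to −1.34 (Ptprq). Nmbr was not called there (−0.95, adjusted p = 0.079), nor with the Y-linked covariate (−0.98, adjusted p = 0.089).

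Whether null matches ∆G was read from the difference between them and its interval. None of the 7 genes passed in ∆G minus null with limma at an adjusted p of 0.05, where 8.71% of all genes did; 3 had an unadjusted p under 0.05, where 23.1% of all genes did. For Entpd4 the difference was 0.063 with a 95% interval of −0.17 to 0.30, the narrowest of the 7. Ccdc85a and Ptprq differed by −0.15 (interval −0.46 to 0.15) and 0.18 (−0.13 to 0.48), and Nmbr by −0.023 with the widest interval, −0.54 to 0.49. These intervals bound a possible difference and do not show that the genotypes are equal. Mean signal lay at percentile 34 of all genes for Gpm6a, 39.2 for Nmbr, 39.6 for Slitrk3 and 42.6 for Ccdc85a. Ptprq, Tnfrsf21 and Entpd4 lay at 71.5, 76.5 and 89.4. Whether background signal limits the falls of Gpm6a, Nmbr, Slitrk3 and Ccdc85a, or their differences between ∆G and null, was not tested.

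Tnfrsf21, Gpm6a and Slitrk3 had intervals above 0, with ∆G higher than null by 0.39 (0.13 to 0.65), 0.48 (0.082 to 0.88) and 0.40 (0.029 to 0.77). Their adjusted p-values were 0.068, 0.13 and 0.18. For these genes every ∆G array lay above every null array, for Slitrk3 barely, as for 13.8% of all genes. Choosing genes for low ∆G signal works against this direction. Tnfrsf21 was called after repeated quantile normalisation and with array weights (adjusted p = 0.037 and 0.040). Gpm6a was called without WT replicate 3 (0.023), with only ∆G and null in the fit (0.034) and with WT replicate 3 as the only WT array (0.034). With the Y-linked covariate Gpm6a turned to −0.32 (adjusted p = 0.54), while Tnfrsf21 and Slitrk3 were 0.16 and 0.33 (0.81 and 0.73).

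**Figure D3:**
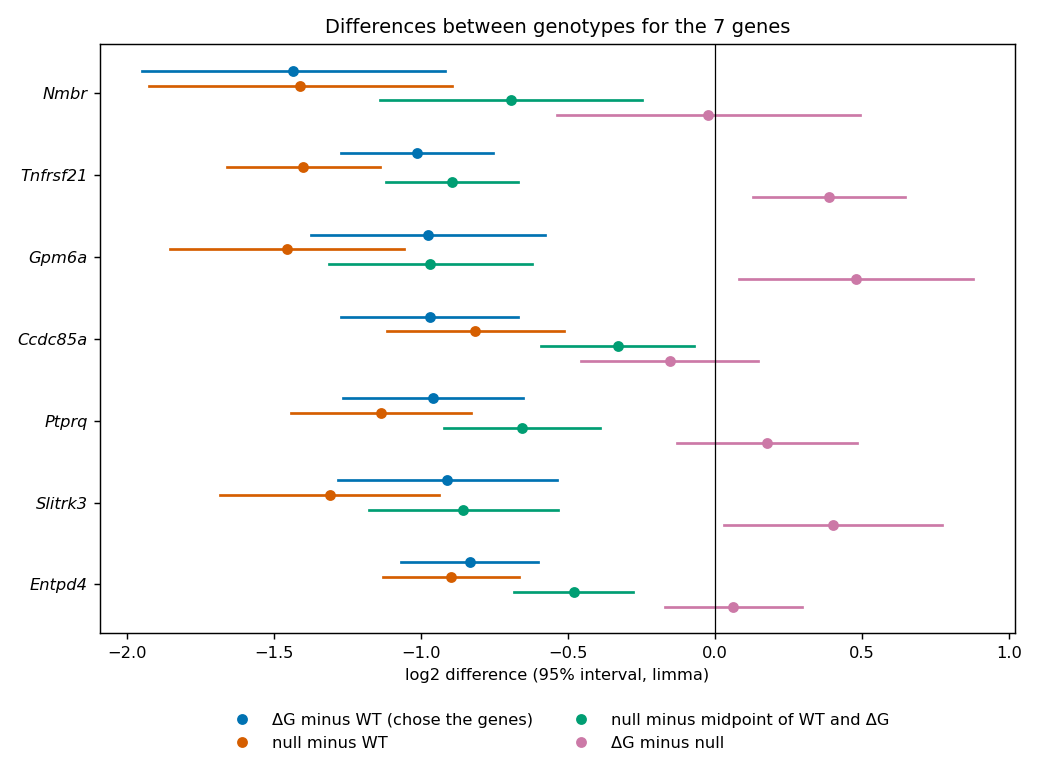
Differences between genotypes for the 7 genes (horizontal axis, log2; points are limma estimates and lines 95% intervals). Null minus WT and null minus the midpoint lie below 0 for all 7 genes, while ∆G minus null crosses 0 for Nmbr, Ccdc85a, Ptprq and Entpd4 and lies above it for Tnfrsf21, Gpm6a and Slitrk3.

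Of 47 listed family or pathway genes of the 7, 44 were measured, and none was called lower in ∆G minus WT, with 8 at an unadjusted p under 0.05 where 11.8% of all genes had one. The gene called higher was Ptprj, a phosphatase of the R3 class like Ptprq. In null minus WT 5 relatives were higher and 4 lower, where 8.38% of all genes were called higher and 10.1% lower. Against the midpoint 4 were higher and 4 lower, where 8.59% of all genes were called higher and 9.52% lower. The median over the 44 was −0.006 in ∆G minus WT and −0.029 in null minus WT, beside −0.018 and −0.010 over all genes.

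Around the receptors, no gene of the bombesin system was called in any comparison. That list holds the receptors Grpr and Brs3, the ligands Nmb and Grp and 5 genes of the G protein and phospholipase C pathway, and 1 of the 9 had an unadjusted p under 0.05 in each comparison with WT. Gnaq, which encodes the G protein alpha subunit these receptors use, had the lowest p against the midpoint (−0.18, adjusted p = 0.063). The list for Tnfrsf21 held 11 measured genes, of death receptors, adaptors and caspases, and App. In it Casp8, the initiator caspase of death receptors, rose by 0.36 in null against WT (limma adjusted p = 0.0084) and lay 0.23 above the midpoint (0.039). Tnfrsf10b, a receptor for the ligand TRAIL, rose by 0.38 in null (adjusted p = 0.041). Ngfr, the low-affinity neurotrophin receptor, lay at −0.32 against the midpoint (0.024). In ∆G minus WT Casp8 and Tnfrsf10b had log2 differences of 0.27 and 0.38 (adjusted p = 0.18 and 0.20).

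The R3 phosphatases split. Ptprj was 8.02, 8.09 and 7.99 in WT, 8.52, 8.75 and 8.44 in ∆G and 8.61, 8.86 and 8.50 in null, so that both mutant groups lay above WT where Ptprq lay below. It rose by 0.53 in ∆G (SE 0.10, adjusted p = 0.046) and 0.62 in null (adjusted p = 0.0020). Ptprb, the vascular endothelial phosphatase, was lower in null by 0.60 (adjusted p = 0.0040) and differed by −0.002 in ∆G (adjusted p = 0.998). The other 2 genes of the class, Ptprh and Ptpro, were not called.

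Among the neuronal families, Gpm6b, the measured relative of Gpm6a, had differences of −0.47 in ∆G and −0.52 in null that did not pass (adjusted p = 0.35 and 0.080). Of 8 genes of the Slitrk family and the receptor phosphatases that bind Slitrk proteins, Slitrk2 rose by 0.70 in null (adjusted p = 0.020), opposite to Slitrk3. The partner phosphatase Ptprd fell by 0.47 in null (adjusted p = 0.0080). Neither was called in ∆G (−0.036 and −0.29, adjusted p = 0.97 and 0.27). Of 14 measured neuron markers none was called in ∆G, with 3 at an unadjusted p under 0.05. In null 1 rose (Syt1, 0.76) and 2 fell (Gap43, −1.15, and Ncam1, −0.87), with a median of −0.022. In ∆G minus WT, Syt1, Gap43 and Ncam1 were at 0.26, −0.78 and −0.085 (limma adjusted p = 0.49, 0.20 and 0.87). Snap25, Dcx, Nefl, Nefm and Elavl4 lay in the lowest quartile of mean signal, where a fall may not be visible. The mean neuron marker signal was 6.38 to 6.52 on WT arrays, 6.30 to 6.43 on ∆G arrays and 6.31 to 6.34 on null arrays.

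Of 9 nucleotide-cleaving enzymes beside Entpd4, none was called in ∆G, with 2 at an unadjusted p under 0.05. In null Entpd7, another enzyme of internal membranes, fell by 0.60 (adjusted p = 0.010) and Cant1, a calcium-dependent nucleotidase, by 0.25 (0.048), while Nt5e, the surface enzyme that makes adenosine, rose by 0.47 (0.0037). Nt5e was −0.29 in ∆G minus WT (adjusted p = 0.20), and ∆G minus null was −0.75 (adjusted p = 0.00069). Ccdc85b and Ccdc85c were not called in any comparison, with log2 differences from WT between −0.10 and 0.038, and neither had an unadjusted p under 0.05.

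**Figure D4:**
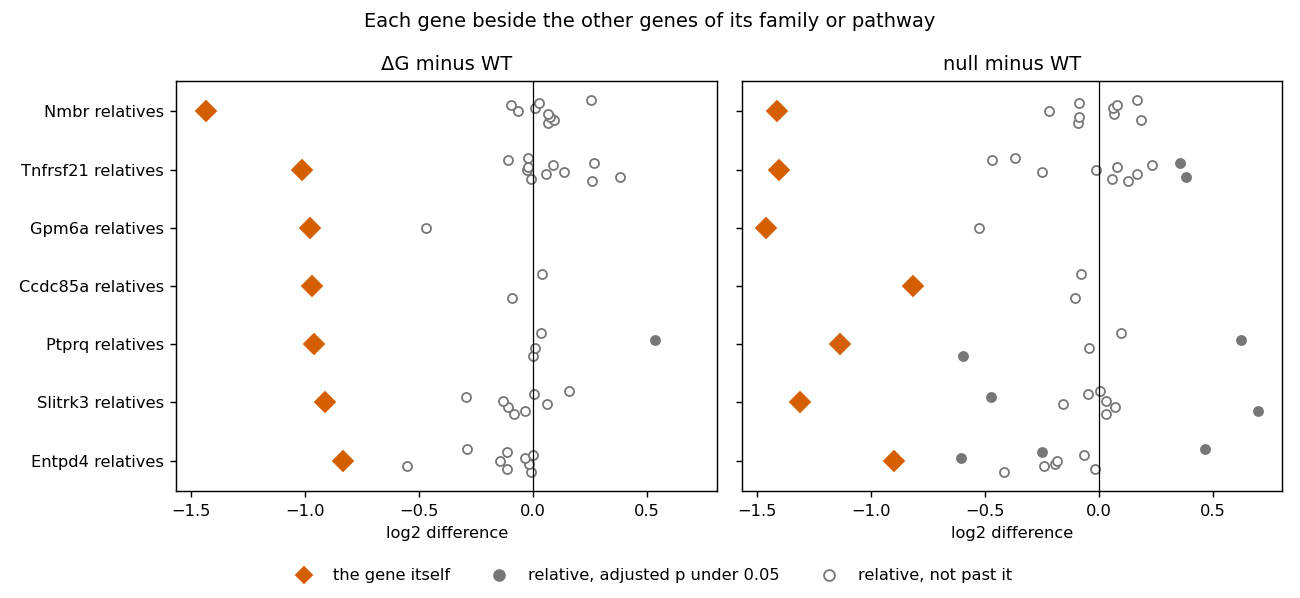
Log2 difference from WT (horizontal axis) of each of the 7 genes (diamonds) and of its measured relatives (circles, filled where the adjusted p is under 0.05) in ∆G and in null. The diamonds lie between −1.46 and −0.82 in null, and 1 relative, Ptprj, is called in ∆G, on the higher side.

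Genes next to the 7 on the chromosome were also looked at. Predicted genes, clone names, small RNAs and receptors for odours or pheromones were left out of all counts in this paragraph. None of the 14 nearest measured genes, 1 on each side, was called in ∆G minus WT, where they ranged from −0.30 to 0.19. In null minus WT 2 were called, Bche beside Slitrk3 at −1.18 (adjusted p = 0.0010) and Vrk2 beside Ccdc85a at 0.40 (0.015). Bche, which encodes a cholinesterase, was thus low in null next to Slitrk3, but at −0.30 in ∆G (adjusted p = 0.56). Entpd4 lies on chromosome 14, which also carries Rb1, with 30 measured genes between them in RefSeq order. None of the 30 was called in ∆G minus WT, and in null minus WT 3 were higher and 4 lower, with medians of −0.014 and −0.043.

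The genes whose signal followed the 7 most closely over the 9 arrays were named by Pearson's r, as a description, since the arrays fall into genotype groups that all these genes share. The 2 most alike per gene had r of 0.947 to 0.994. They were Elp2 and Igfbp2 for Nmbr, Zfp87 and Dkk3 for Tnfrsf21, Rnf139 and Derl2 for Gpm6a, Dbt and Ccn6 for Ccdc85a, Samd8 and Prmt9 for Ptprq, Wnt5a and Ttc27 for Slitrk3, and Tmem260 and Ids for Entpd4. Of these 14, 3 were called lower in ∆G minus WT (Igfbp2, Dkk3 and Tmem260) and 8 were called below the midpoint in null. Dkk3, a secreted protein of the Dickkopf family, was 10.62 ± 0.17 in WT, 9.84 ± 0.18 in ∆G and 9.37 ± 0.11 in null. Its ∆G minus null difference was 0.47 (adjusted p = 0.024), beside 0.39 (0.068) for Tnfrsf21, which it follows at r = 0.987; the difference between these genes was not tested. Tmem260 (r = 0.994 with Entpd4) was 9.55 ± 0.20, 8.76 ± 0.12 and 8.65 ± 0.080. Among the 7 themselves r ran from 0.746 (Gpm6a with Ccdc85a) to 0.982 (Tnfrsf21 with Slitrk3).

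Markers of other cells were set beside these results. Of 10 macrophage markers none was called in limma in any comparison, with 1 at an unadjusted p under 0.05 in ∆G minus WT. In order of replicate, their mean signal was 6.68, 6.24 and 5.56 in WT, 7.29, 6.71 and 5.96 in ∆G and 6.10, 5.74 and 6.01 in null. The group ranges overlapped, and replicate 3 was the lowest array in WT and in ∆G. All 10 had a higher mean in ∆G than in WT and than in null, with medians of 0.45 and 0.60, beside −0.018 and −0.008 over all genes. Lyz2, the lysozyme of macrophages, had the widest gap from WT, 1.01 (adjusted p = 0.63). The part of these markers in the values of the 7 genes was not tested. Endothelial, epithelial, skeletal muscle and glial markers held no called gene in ∆G minus WT among 7, 6, 7 and 7 measured. In those lists 0, 0, 0 and 1 had an unadjusted p under 0.05. In null minus WT each of the 4 lists held 1 called gene. The fibroblast markers did move with null: 9 of 11 fell against WT and none was called in ∆G minus WT, where none had an unadjusted p under 0.05. The array mean of these markers was 11.96, 11.90 and 11.62 on the WT arrays and 11.70, 11.72 and 11.54 on the ∆G arrays, in order of replicate, so WT replicate 3 was the WT array within the ∆G range. Lum, a matrix proteoglycan, lay lower on every ∆G array than on any WT array (−0.87, adjusted p = 0.44). The part of fibroblast marker signal in the values of the 7 genes was not tested. As a reference for the allele, 9 of 12 G1/S genes driven by E2F rose in ∆G and 12 of 12 in null, with medians of 0.92 and 1.56. Of all genes, 0.602% and 8.38% were called higher there. In ∆G minus null 10 of the 12 were called lower, with a median of −0.535, where 4.27% of all genes were. The rise of these reference genes was thus smaller in ∆G than in null.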

How the data were processed

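RNA of 9 fibroblast cultures was measured on Affymetrix mouse whole-transcript gene arrays. The authors deposited log2 values made by RMA (background correction, quantile normalisation, probe set summary), per the labels and the series text, which names BRB-ArrayTools; the submitters' processing notes list RMA and affy. Software versions and the array's build were not given in the sources used here. Of 35512 probe sets, 21789 carried 1 gene symbol, 21698 of them matched to RefSeq by gene ID; the probe set with the highest mean stood for a gene with several, leaving 19938 genes. Each of the 7 genes had 1 probe set, and no low-signal filter was applied, so all 7 entered the fit. Groups came from the genotype label. All 9 arrays entered 1 limma fit (limma 3.58.1, R 4.3.3) with Benjamini-Hochberg adjustment over all genes at 0.05. The code was run on simulated data with equal spread in all groups and shifts in null only. That run held no sex pattern and no choice of genes, so it does not check the contrasts under those conditions. The p-values are two-sided. The 7 genes, the lists and the tests were chosen with earlier results of these data known. Named genes are the 7, Rb1, Igfbp2, the next gene by fall, up to 3 called genes per family list (or the one with the lowest p against the midpoint), the 2 most alike genes and the nearest measured neighbours. Predicted genes, clone names, small RNAs and receptors for odours or pheromones were not named. They were also left out of the ranking by fall, the search for most alike genes and the counts of chromosome neighbours. Other genes named from marker lists are given for those lists, and motif words were chosen after the windows were at hand. Alternatives changed normalisation, filter, probe set rule, variance model, weights, pairing, covariate and arrays.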

Additional observations from a re-analysis of the deposited data

How the results depend on the processing

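The position of null below the midpoint kept its direction for all 7 genes in each of the 20 alternatives run for it. The number of genes called there was 5 to 7 when arrays were left out in turn and 1 with the Y-linked covariate. Over all genes 3611 were called in that contrast, 2193 (without null replicate 1) to 3958 with arrays left out, 5420 with array weights and 670 with the Y-linked covariate. In null minus WT 7 genes were called whichever array was left out; over all genes 3678 were called, against 1580 with the Y-linked covariate and 1782 with WT replicate 3 as the only WT array. In ∆G minus null 0 to 1 of the 7 were called with arrays left out (1 without WT replicate 3) and 1 each with repeated quantile normalisation, array weights, only the 2 groups in the fit and WT replicate 3 as the only WT array. Over all genes 1737 were called there, 762 to 2408 with arrays left out (762, 885 and 847 without ∆G replicate 1, ∆G replicate 2 and null replicate 1), 3697 with array weights and 53 with the Y-linked covariate. Some ∆G minus null differences changed sign: Gpm6a to −0.32 and Entpd4 to −0.048 with the Y-linked covariate, Nmbr to 0.12 and Ccdc85a to 0.013 without ∆G replicate 1, and Nmbr to 0.14 without ∆G replicate 2; with arrays left out Nmbr ran from −0.33 to 0.14 and Ccdc85a from −0.33 to 0.013. In ∆G minus WT, which chose the genes, 3 to 7 were called with arrays left out, 4 with robust eBayes, 4 with only the 2 groups in the fit and 2 with WT replicate 3 as the only WT array. It was 3 without WT replicate 2 or ∆G replicate 2 and 4 without WT replicate 1 or ∆G replicate 1. Over all genes 162 were called, 62 to 252 with arrays left out (62, 70, 83 and 91 without WT replicate 2, ∆G replicate 2, ∆G replicate 1 and null replicate 1, 252 without ∆G replicate 3), 292 with array weights and 65 with WT replicate 3 as the only WT array. The cause of these changes was not tested. Whether replicate numbers mark litters is not known from the labels, and the arrays were not treated as paired. Same-numbered arrays of different groups had deviations correlated at −0.084 to 0.27, and 4 of 9 such pairs were over 0.1. Arrays correlated best with their own number in 11 of 18 checks, where chance alone gives 6. With the replicate number as a block, 5 of the 7 genes were called against the midpoint (Nmbr at adjusted p = 0.057) and 7, 7 and 0 in ∆G minus WT, null minus WT and ∆G minus null. The fit with only the 2 groups compared could not be made for the midpoint.  Groups of 3 arrays are too small for a check of single arrays, and no detection calls were used.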
